A study of Homo sapiens with 6 samples.

Results

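The unnamed loci far from genes are the stretches of the human genome where the merged assembly of this study placed RNA although no gene name was near. A locus was counted when it carried no gene name, was longer than 300 bases, lay more than 50 kb from every named locus of its chromosome and had a pooled FPKM above 1 in the control or the heat shock group. FPKM is the number of sequenced fragments scaled to the length of the transcript and the size of the library. The rule took 11385 rows of the 117001 in the merged table. Some rows share an interval, so that the 11385 rows make up 11216 distinct intervals, which are called far loci here. The pooled level was part of the choice: 7547 rows passed through the control value alone, 1851 through the heat shock value alone and 1987 through both, and these counts describe the choice only.

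The libraries came from HEK293, an established line of human embryonic kidney cells. The 3 control cultures were untreated, and the 3 heat shock cultures were held at 45°C in a water bath for 30 minutes. One library per culture was made from total RNA after ribosomal RNA had been depleted. Harvest is placed 30 minutes after heat shock in the paper, and no genetic change or other agent is given for either group.

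The name of the group holds for the annotation that the authors used, and holds less well for a fuller one. In GENCODE release 44 on the same build (GRCh37, hg19), 4038 far loci (36.0%) overlapped an annotated gene, 3145 of them or 28.0% of all far loci a long non-coding gene, and 803 (7.16%) a protein-coding gene. An annotated exon was overlapped by 1093 far loci (9.75%). In all, 1940 far loci (17.3%) lay more than 50 kb from every GENCODE gene. Unnamed loci within 50 kb of a named locus, chosen by the same length and level (27610 intervals, called near loci), overlapped an annotated exon in 18% of cases.

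Much of the human genome away from genes yields some RNA. Some kinds of sequence there are known to matter for what an assembler reports: processed pseudogenes, which are copies of spliced messenger RNAs pasted back into the genome, fragments of ribosomal DNA, and the tandem repeats around centromeres (alpha satellite and the GGAAT pentamer repeats of satellites II and III). Heat shock is known to switch on transcription of satellite III at the pericentromere of chromosome 9 through the heat shock factor HSF1. Long genes can also start at exons that an annotation does not hold, and such an exon then appears as an unnamed locus.

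The sequences below were chosen because each stands for a kind of far locus on which the results turn. All are from GRCh37 and are printed 5′ to 3′. The locus chrX:108297217-108297951, which every library listed, held a match to 28S ribosomal RNA of 488 aligned bases at 97.5% identity. Its middle, chrX:108297472-108297711 on the plus strand, is printed with the bases that differ from the 28S gene in capitals.
28S-like locus on chromosome X: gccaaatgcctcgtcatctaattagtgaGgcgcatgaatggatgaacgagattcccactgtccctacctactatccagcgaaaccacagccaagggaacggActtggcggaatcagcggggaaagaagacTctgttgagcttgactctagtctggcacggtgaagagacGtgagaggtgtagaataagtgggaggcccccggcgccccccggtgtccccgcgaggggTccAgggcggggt
The locus chr6:12514587-12515173 overlaps RPL15P3, a processed pseudogene of RPL15, which encodes a protein of the large ribosomal subunit. Its 421 aligned bases were 99.0% identical to the RPL15 messenger RNA, and capitals mark the bases that differ from it in chr6:12514677-12514916 (plus strand).
RPL15P3 locus on chromosome 6: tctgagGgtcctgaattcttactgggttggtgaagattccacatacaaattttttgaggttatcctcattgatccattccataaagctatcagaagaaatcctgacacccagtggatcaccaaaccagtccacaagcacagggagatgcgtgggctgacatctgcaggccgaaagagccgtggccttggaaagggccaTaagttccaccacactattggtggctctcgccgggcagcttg
The locus chr6:58775991-58779915 is built of tandem repeats with the period of alpha satellite. The next lines give a pair of successive repeats, chr6:58777227-58777397 and chr6:58777398-58777568 (plus strand), which were 80.1% identical, with the differing bases in capitals.
Alpha-satellite-like repeat, first copy: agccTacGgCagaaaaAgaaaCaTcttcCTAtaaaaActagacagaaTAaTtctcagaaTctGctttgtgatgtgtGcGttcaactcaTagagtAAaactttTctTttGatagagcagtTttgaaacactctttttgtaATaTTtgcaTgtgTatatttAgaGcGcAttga
Alpha-satellite-like repeat, next copy: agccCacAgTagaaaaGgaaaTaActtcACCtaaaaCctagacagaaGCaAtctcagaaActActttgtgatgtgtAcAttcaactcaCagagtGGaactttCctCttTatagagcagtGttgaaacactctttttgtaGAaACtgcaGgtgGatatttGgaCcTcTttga
The locus chr4:49131959-49132259 is a pentamer repeat, shown at chr4:49131959-49132078 (plus strand), where capitals mark its 17 copies of GGAAT or of the complement ATTCC.
Pentamer repeat on chromosome 4: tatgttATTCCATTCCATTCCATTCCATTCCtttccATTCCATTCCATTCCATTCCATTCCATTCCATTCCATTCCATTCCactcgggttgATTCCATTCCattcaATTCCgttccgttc
The last pairs show the ends of introns as assembled, with 10 bases of exon and 20 of intron at each end and the terminal dinucleotides of the intron in capitals. The first pair belongs to a transcript within the span of TENM1 (minus strand, donor at chrX:124288390-124288419, acceptor at chrX:124097657-124097686), and the second to the RPS27AP16 locus on chromosome 16 (plus strand, donor at chr16:61089495-61089524, acceptor at chr16:61090599-61090628).
TENM1 span, donor: agtactctagGTgagtctgctttttctttg
TENM1 span, acceptor: tttttccctttctcttccAGgactgcttgc
RPS27AP16 locus, donor: ccaccttataGTatttcaggacagccagct
RPS27AP16 locus, acceptor: aaagagataggtttaaagAGatatttaaag

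The value of a far locus in a library was the summed FPKM of the transcripts whose span covered at least 50% of it, and a locus with no such transcript was listed at 0. A 0 is therefore the absence of a long enough transcript from the assembly and not a measured absence of RNA. Far loci were listed in 2323, 4770 and 341 cases in control replicates 1, 2 and 3, and in 210, 247 and 2027 cases in heat shock replicates 1, 2 and 3. Control replicates 1 and 2 and heat shock replicate 3 thus listed far more of them than the other 3 libraries, and the groups overlapped. The same 3 libraries held the most single-exon transcripts without a strand in the whole assembly, with 141632, 194489 and 151889 against 45600 in control replicate 3 and 17304 and 30334 in heat shock replicates 1 and 2. Among the 3 libraries with many strandless transcripts, heat shock replicate 3 listed fewer far loci than either control. Among those with few, heat shock replicates 1 and 2 listed fewer than control replicate 3, but they also held fewer strandless transcripts. Per 1000 strandless transcripts the order there was the other way, with 12.1 and 8.14 far loci in heat shock replicates 1 and 2 and 7.48 in control replicate 3, while heat shock replicate 3 with 13.3 stayed below the 16.4 and 24.5 of control replicates 1 and 2. With 1 library of a group in each of these sets, no test within them was made, and the part of the assembly in these counts was not tested.

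**Figure D1:**
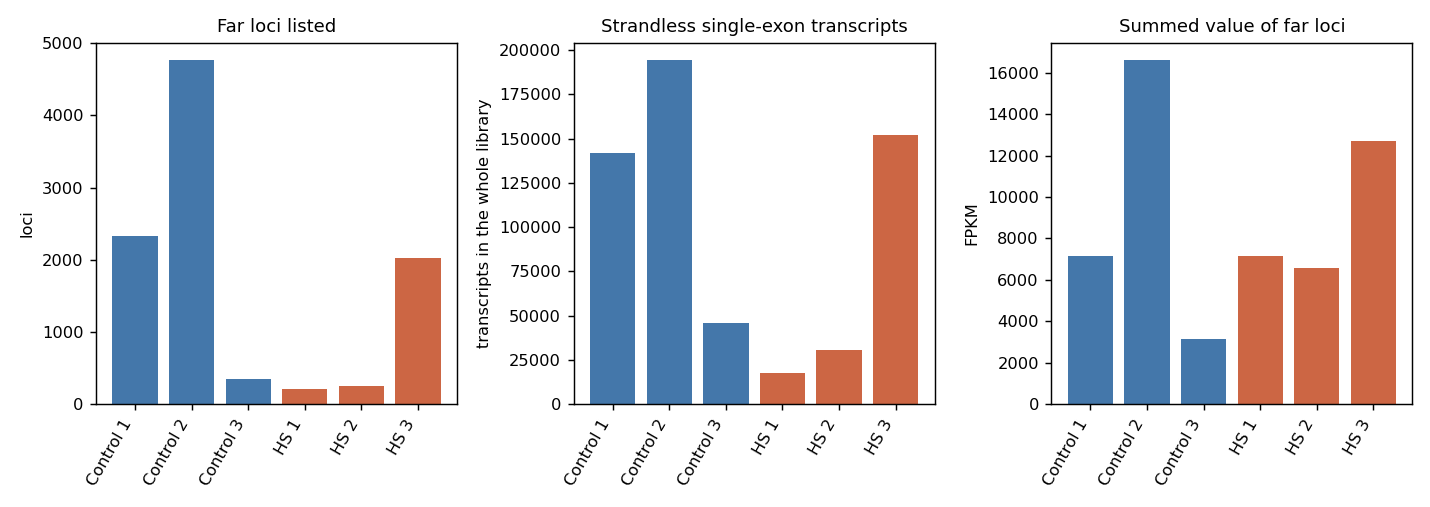
Bars give, for each of the 6 libraries (blue, control; orange, heat shock, HS), the number of far loci listed, the number of single-exon transcripts without a strand in the whole library and the summed FPKM of the far loci. The libraries with 2323, 4770 and 2027 far loci listed are the 3 with the most strandless transcripts, from 141632 to 194489.

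Most far loci were seen once. No library listed 2833 of them, 1 library listed 7107 (63.4%), 2 listed 1068, 3 listed 1.52% of them, 4 listed 25, 5 listed 10 and 6 listed 2. Control libraries alone listed 6027, heat shock libraries alone 1543, and both groups 813. Control replicate 2 by itself accounted for 3869 of the loci listed in a single library. The near loci followed the same pattern, with 27.6%, 36.3% and 3.21% listed in the controls against 3.27%, 3.94% and 18.4% after heat shock, beside 20.7%, 42.5% and 3.04% against 1.87%, 2.20% and 18.1% of the far loci. Where a far locus was listed, its median value was 1.56, 1.75 and 2.72 FPKM in the controls and 5.04, 6.62 and 1.87 FPKM after heat shock, so the libraries with few loci listed had the higher medians. Nearly all the transcripts behind these values had no strand: 0.628% to 0.887% carried one in the 3 libraries with many strandless transcripts, and 6.92%, 14.1% and 12.5% in control replicate 3 and heat shock replicates 1 and 2.

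The values as a whole differed between libraries in ways that touch every comparison below. The size factor, from named loci above 10 FPKM in all libraries, ranged from 0.429 to 0.973 in the controls and was 2.20, 2.40 and 0.487 in heat shock replicates 1, 2 and 3. Coverage per FPKM, the one measure of depth these files allow, differed by up to 2.03-fold. Of 12 heat shock genes, among them the chaperone genes HSPA1A, HSPA8 and DNAJA1, all 12 had a higher mean FPKM after heat shock and 0 of the 5 whose locus was tested passed the test. These means were taken without size factors, and on that scale the median log2 fold change of all 9269 loci tested was 0.66. Whether these genes rose beyond that shift was not tested. Of 6 genes that HEK293 cells express, NEFL and KRT18 were above 1 FPKM in every library, while annotated transcripts of PAX2, VIM and KRT8 were listed at 0 in at least 1 library and NEFM fell to 0.937 FPKM in control replicate 3. Markers of blood and liver cells (PTPRC, HBB and ALB) did not exceed 0.344 FPKM.

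Sorted by sequence and annotation, 7004 far loci (62.4%) overlapped no annotated gene and 2940 (26.2%) lay within a gene but on no exon. Exons of long non-coding RNAs were met by 797, processed pseudogenes by 89, other pseudogenes by 57 and protein-coding exons by 83. Matches to ribosomal RNA were found in 8 far loci, matches to mitochondrial DNA in 7, pentamer repeats in 63 and repeats with the alpha satellite period in 124. The ribosomal and tandem repeat loci together were 195 loci or 1.74% of all, and held 26.4%, 34.8% and 10.1% of the summed FPKM of the far loci in the controls against 65.8%, 47.6% and 39.3% after heat shock. The groups did not overlap in this share, but that rested on single loci. In heat shock replicate 1 chr19:24183973-24185621 alone held 52.9% of the summed FPKM, and without it the share was 27.4%. In heat shock replicate 2 chr12:127650246-127652017 held 39.0%, and without it the share was 14.2%. Both values lie below the 34.8% of control replicate 2. In heat shock replicate 3 the tandem repeats led, with 23.3% for the alpha satellite period and 12.7% for pentamers. When the exons of a transcript, and not its span, had to cover 50% of the locus (chosen after the values were seen), the libraries kept 189 to 4752 listed far loci but lost 14.2%, 29.5% and 28.1% of the summed FPKM in the controls against 68.4%, 49.8% and 26.5% after heat shock. Both of those single loci were then at 0, the share of the ribosomal and tandem repeat loci was 24.5%, 9.71% and 14.0% in the controls against 14.4%, 16.1% and 19.5% after heat shock, and the groups overlapped. Bulk RNA does not tell a change in the level per cell from a change in the number of cells that make an RNA.

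**Figure D2:**
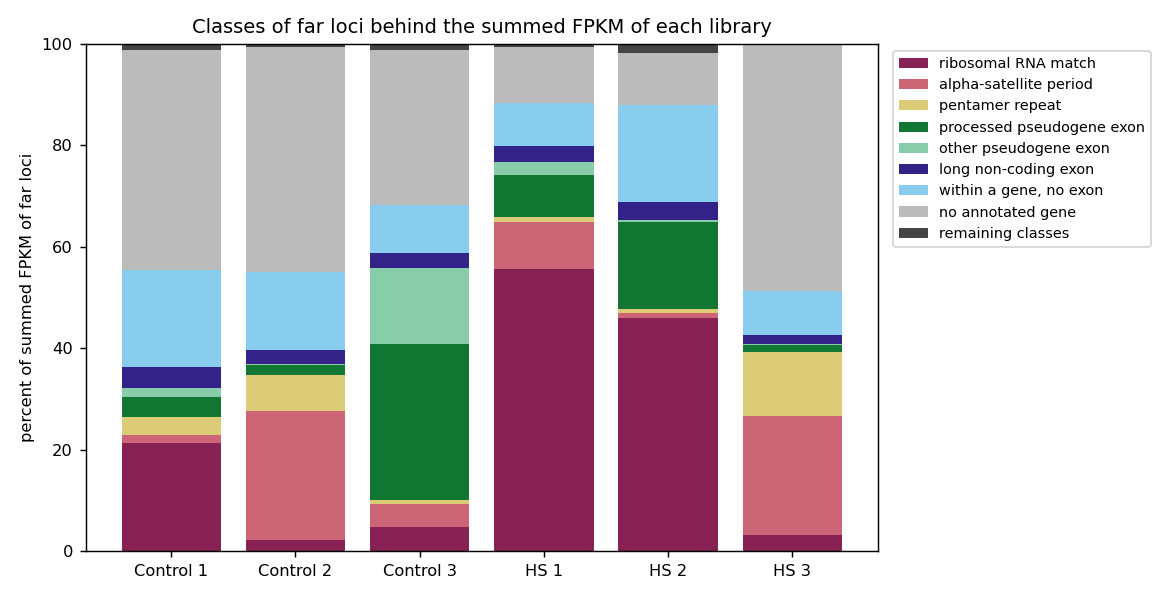
Each bar splits the summed FPKM of the far loci of 1 library (percent, 0 to 100) by class of locus. Loci matching ribosomal RNA make up 55.7% and 45.9% in heat shock replicates 1 and 2. Loci with the alpha satellite period make up 25.5% in control replicate 2 and 23.3% in heat shock replicate 3, and loci with no annotated gene 44.4% and 48.5% in those same libraries.

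Ribosomal DNA fragments were few, and 7 of the 8 matched 28S ribosomal RNA. In the assemblies the 45S precursor gene itself was listed at 0 FPKM in all 6 libraries. The locus chrX:108297217-108297951, printed above, had 303, 92.1 and 148 FPKM in the controls and 195, 321 and 140 FPKM after heat shock. Its means were 181 ± 109 (SD, n = 3) and 218 ± 93.0 FPKM (SD, n = 3), and the groups overlapped. It was 1 of the 2 far loci listed in every library, and it lies in the annotated pseudogene CTD-2328D6.1. The locus chr12:127650246-127652017, whose best match to 28S was 231 bases long at 95.2% identity, was listed at 182 FPKM in control replicate 1 and 2556 FPKM in heat shock replicate 2 and at 0 in the other 4 libraries. With any overlap counted, its values were 574, 184 and 1481 FPKM in the controls and 2306, 2556 and 532 FPKM after heat shock, so every library held RNA there. Of the libraries, heat shock replicate 1 alone listed chr19:24183973-24185621, at 3792 FPKM, and any overlap gave between 141 and 55517 FPKM in the 6 libraries. Its best match to 28S was 279 bases long at 82.1% identity, and 16.3% of the locus was matched. Whether the listed RNA came from the matched part was not tested. For chr5:71146580-71147092 the listed values were 726 and 213 FPKM in control replicates 1 and 2 and 225.1 FPKM in heat shock replicate 3, and any overlap added 1647 FPKM in control replicate 3, 2580 FPKM in heat shock replicate 1 and 3254 FPKM in heat shock replicate 2. Reads from ribosomal RNA cannot be placed with certainty among such copies, and values of these loci are uncertain for that reason.

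Tandem repeats were the other abundant kind. Of the 63 pentamer repeats, 48 lay within 2 Mb of a sequence gap of at least 3 Mb, as the reference has at centromeres, and so did 65 of the 124 loci with the alpha satellite period, against 750 of all 11216 far loci (6.69%). Chromosome 4 held 24 of the pentamer repeats and chromosome 10 held 4. Of the 357 far loci on chromosome 9, 0 were pentamer repeats, so the place known for heat-induced satellite III gave no far locus to compare. The alpha-satellite-like locus chr6:58775991-58779915 was the other locus listed in all 6 libraries, with 38.3, 333 and 26.5 FPKM in the controls and 50.2, 16.1 and 177 FPKM after heat shock. Its highest values came from control replicate 2 and heat shock replicate 3, and the groups overlapped. The locus with the highest mean of all, chr19:27731793-27735623, had 1928 FPKM in control replicate 2, 532 in heat shock replicate 1 and 1430 in heat shock replicate 3, and was listed at 0 in the other 3 libraries. A locus at chr7:61967158-62000902 was listed in control replicate 2 alone, at 1413 FPKM. With any overlap every library held RNA at both loci. On chromosome 19 the values were 31.9, 7317 and 455 FPKM in the controls and 641, 68.6 and 2790 FPKM after heat shock. Those on chromosome 7 were 919, 3731 and 639 FPKM in the controls and 380, 229 and 3213 FPKM after heat shock. Neither locus kept a value when exons had to cover 50% of it. By contrast chrX:61717751-61718185, 435 bases with no annotated gene and next to the centromeric gap, kept all its values under that rule: 1290 FPKM in control replicate 2, 53.3 in heat shock replicate 2 and 1781 in heat shock replicate 3.

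Among the pentamer repeats, chr10:42382410-42600734 spans 218325 bases and was listed at 903 FPKM in control replicate 2, 64.1 in heat shock replicate 1 and 1446 in heat shock replicate 3. Any overlap gave 14153, 18871 and 1817 FPKM in the controls and 15444, 4948 and 28703 FPKM after heat shock. Its neighbour chr10:42354973-42382246 had 203 FPKM in control replicate 1 and 11.4 FPKM in heat shock replicate 3, and any overlap gave it a value in every library but heat shock replicate 2. The pentamer repeat printed above, chr4:49131959-49132259, had 30.0, 0 and 26.3 FPKM in the controls and 0, 34.8 and 45.8 FPKM after heat shock. Any overlap put heat shock replicate 1 at 437 FPKM and left the other values unchanged. The heat shock values then lay above the controls, but limma called 0 loci with any overlap. A locus with the alpha satellite period that also holds the pentamer run, chr16:46385800-46413530, had 328 FPKM in control replicate 2, 36.6 FPKM in heat shock replicate 2 and 193 FPKM in heat shock replicate 3. Its best self-match was 67.4% at the alpha satellite period and 53.8% at the pentamer period, and which satellite it is was not tested. There any overlap gave 1326, 3341 and 774 FPKM in the controls and 1191, 1302 and 1791 FPKM after heat shock. In each of these loci the groups overlapped. When exons, and not the span, had to cover the locus as above, the chromosome 10 loci and the chromosome 16 locus had no value in any library. Their listed values therefore rest on introns that cross the locus, and are not levels over it. The pentamer repeat on chromosome 4 kept all its values under that rule.

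The comparison of the heat shock with the control libraries asked which loci changed by 30 minutes after heat shock. A locus entered the test when its mean over the 6 libraries was at least 1 FPKM, which 367 far loci reached; 8016 were listed below that mean and 2833 were not listed. Over all 9269 loci tested with limma on log2(FPKM + 1), 0 passed an adjusted p of 0.05 with more than a 2-fold change (0% of all loci), and so 0 of the far loci did. At an unadjusted p under 0.05 and more than 2-fold, limma gave 24 far loci higher after heat shock, 6.54% of those tested, beside 3.66% of all loci tested, and 9 lower, 2.45% beside 0.464%. Among near loci the shares were 11.2% and 1.5%. All libraries of a group lay beyond all of the other in 5 far loci that were higher after heat shock (1.36%, beside 2.85% of all loci tested) and in 4 that were lower (1.09%, beside 0.744%). The median log2 fold change of the far loci tested was 0.43, against 0.66 over all loci and 0.71 over near loci. With size factors the median of all loci was -0.09 and that of the far loci -0.94, and with the same total FPKM these medians were 0.06 and -0.27. The order did not hold throughout: in 6 of 20 alternatives the median of the far loci was the higher of the pair, as with a minimum of 5 FPKM (1.00 against 0.89), an overlap of 80% (0.96 against 0.74) or a term for strandless transcripts (0.51 against 0.37), and when control replicate 1, control replicate 2 or heat shock replicate 1 was left out. Since a far locus high in 1 group passed the filters through that group, these counts and medians are descriptions.

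**Figure D3:**
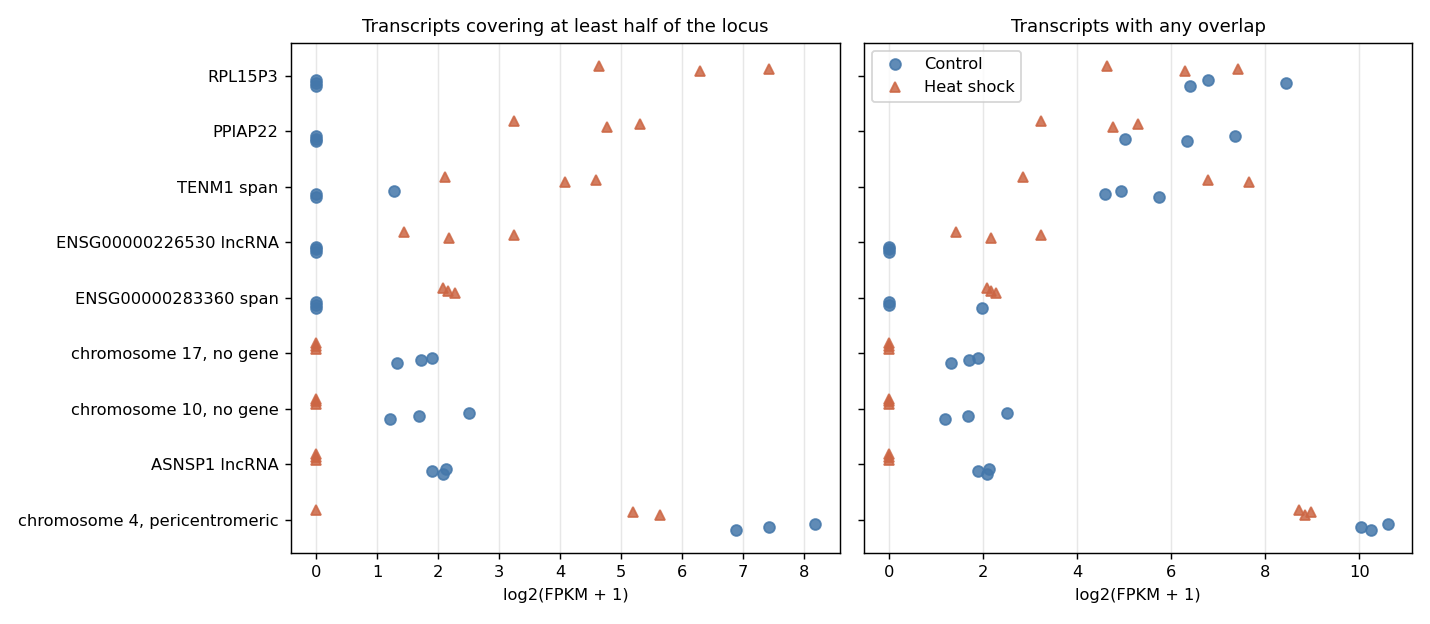
Points give log2(FPKM + 1) in each library (blue circles, control; orange triangles, heat shock) for the 9 tested far loci whose groups did not overlap, on the left from transcripts covering at least 50% of the locus and on the right from transcripts with any overlap. RPL15P3 and PPIAP22 stand at 0 in the controls on the left and at 31.3 to 346 FPKM on the right, where the groups no longer separate in the same direction.

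RPL15P3 had the smallest adjusted p of all loci tested. The locus chr6:12514587-12515173 had no listed transcript in any control, while the heat shock libraries gave 77.2, 170.96 and 23.9 FPKM. The adjusted p was 0.101 (limma, Benjamini-Hochberg), which did not pass the threshold, with higher values in 3 of 3 heat shock libraries. The controls nevertheless held RNA there. With any overlap counted, their transcripts had 83.6, 346 and 110 FPKM. What differed was the length assembled: the control transcripts were 272, 147 and 287 bases long and covered 46.3%, 25% and 48.9% of the locus, and the heat shock transcripts were 442, 322 and 384 bases long and covered 75.3%, 54.9% and 65.4%. Under any overlap the direction turned, with a log2 fold change of -1.09. RPL15 itself was listed at 151, 71.7 and 217 FPKM in the controls and 501, 438 and 74.4 FPKM after heat shock. The central 300 bases of the locus had a median of 4 genomic copies of each run of 31 bases, so its reads are shared with near-identical copies in a way these values do not show.

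PPIAP22, a processed pseudogene of the cyclophilin A gene PPIA, showed a like pattern. The locus chr21:20230460-20230963 had 26.3, 38.4 and 8.42 FPKM after heat shock and was at 0 in every control (limma, adjusted p = 0.177). Control transcripts of 176, 178 and 163 bases covered 34.9%, 35.3% and 32.3% of it, at 80.2, 31.3 and 163 FPKM, and heat shock transcripts of 356, 324 and 306 bases covered 70.6%, 64.3% and 60.7%. Any overlap gave a log2 fold change of -1.80. The 68% of the locus that aligned to PPIA was 99.7% identical to it, and PPIA had 237, 111 and 236 FPKM in the controls and 537, 620 and 124 FPKM after heat shock. In both pseudogenes the separation of the groups rested on the 50% overlap rule.

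An annotated processed pseudogene exon was overlapped by 95 far loci when those with repeats are included, and 19 of them (20%) were tested, against 3.27% of all far loci. For 33 of the 95, the match to a protein-coding transcript covered at least 50% of the locus, with a median identity of 90.5% (range 71% to 99.7%), and for 11 of these the parent was a ribosomal protein gene. Control libraries alone listed 30 of the 95, heat shock libraries alone 14 and both groups 19. RPL13AP25 (chr13:55014792-55015096, 99.6% identical to RPL13A, a protein of the large ribosomal subunit) had 0, 42.5 and 213 FPKM in the controls and 316, 111 and 45.3 FPKM after heat shock. Its 0 in control replicate 1 became 741 FPKM with any overlap, the highest of all its values. FTH1P20 (chr2:181737418-181737802, 97.1% identical to FTH1, the ferritin heavy chain) had 16.2, 20.8 and 80.8 FPKM in the controls and 0, 277 and 0 FPKM after heat shock, where any overlap gave 1170, 277 and 388 FPKM. RPL13A and FTH1 themselves lay between 96.6 and 743 FPKM. Groups overlapped in both copies.

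The TENM1 span held spliced far loci. TENM1 encodes a teneurin, a transmembrane protein of neurons, and GENCODE places it at chrX:123509753-124338161 on the minus strand. All 13 far loci within this span were tested, but they are not independent: in control replicate 3 a single transcript of 1.41 FPKM gave its value to all 13, and in heat shock replicate 2 a transcript of 22.9 FPKM ran across all 13. The locus chrX:124246470-124288858 had 0, 0 and 1.41 FPKM in the controls and 16.0, 22.9 and 3.34 FPKM after heat shock, and the groups did not overlap. Its log2 fold change was 3.17 ± 0.80 (SE), higher in 3 of 3 heat shock libraries, with an adjusted p of 0.735 (limma). Each of these values came from a spliced transcript on the minus strand, the strand of TENM1. In all 4 libraries the transcript began with an exon that ended at the same base (chrX:124288410-124288858, 449 bases, overlapping no annotated TENM1 exon) and whose intron opened with the GT printed above. The next exon differed. In control replicate 3 it was the annotated TENM1 exon chrX:124097386-124097666, after an intron of 190743 bases. In heat shock replicates 1 and 3 an intron of 41858 bases led to an exon that ended at position 124246551, and in heat shock replicate 2 an intron of 171211 bases led to one that ended at position 124117198.

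**Figure D4:**
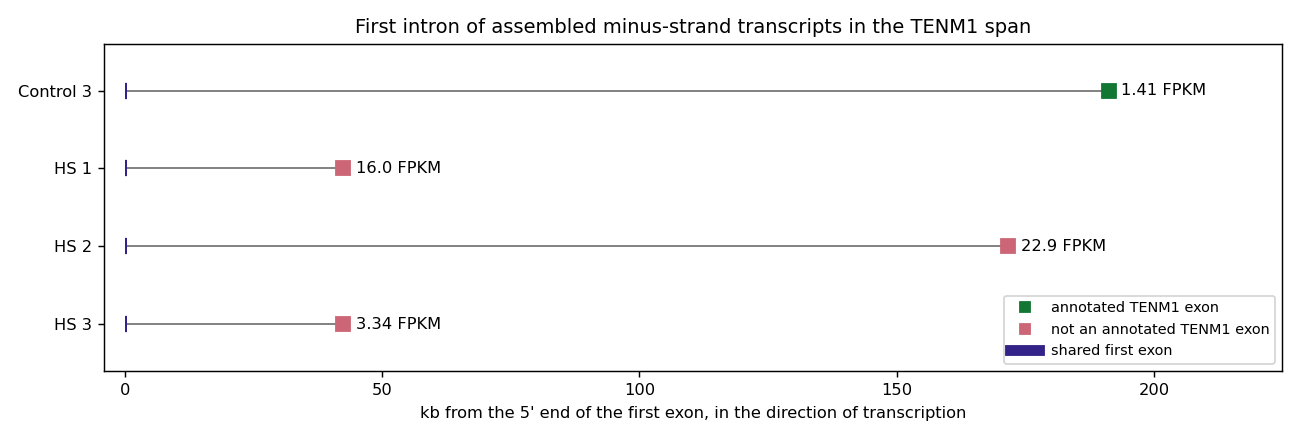
Lines show the first intron of the 4 assembled minus-strand transcripts that begin at the shared exon in the TENM1 span, drawn to scale in kb from the 5′ end of that exon, with the FPKM of each transcript. Squares mark the exon joined (green, annotated; pink, not annotated). The transcript of control replicate 3 reaches an annotated TENM1 exon after 190743 bases, and those of heat shock replicates 1 and 3 join the same unannotated exon after 41858 bases.

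The exon itself was seen in 5 of the 6 libraries. Transcripts covering it summed to 0, 4.81 and 9.33 FPKM in the controls and 16.0, 22.9 and 3.34 FPKM after heat shock, so that on the exon alone heat shock replicate 3 was below control replicates 2 and 3 and the groups overlapped. Annotated TENM1 transcripts summed to 0.602, 0.373 and 0 FPKM in the controls against 1.103, 2.14 and 0.225 FPKM after heat shock, lower than the exon in each of the 5 libraries that listed it. With any overlap, the locus had 52.8, 23.3 and 29.7 FPKM in the controls and 200, 109 and 6.17 FPKM after heat shock. With exons required to cover 50% of the locus it was at 0 in all 6 libraries, since most of it is intron. Heat shock replicates 1 and 2, which had the highest values, also had the highest size factors. The log2 fold change of the locus was 2.70 with size factors and 2.80 with the same total FPKM, against 3.17 as deposited, and 0.66 with any overlap.

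Among the far loci whose groups did not overlap, a further 2 were higher and 4 were lower after heat shock, and 5 of these 6 stood below 10 FPKM in every library. ENSG00000226530, a long non-coding RNA, was represented by chrX:51143295-51143954, with 3.52, 8.43 and 1.70 FPKM after heat shock and nothing listed in the controls (limma, adjusted p = 0.735), and any overlap gave the same values. Cufflinks placed the lower bound of its 95% interval at 0.625 FPKM in heat shock replicate 3, so this value lies close to the limit of what the assemblies listed. Within the span of the long non-coding gene ENSG00000283360, chr1:161394169-161395168 had 0 in the controls and 3.84, 3.48 and 3.23 FPKM after heat shock (limma, adjusted p = 0.735), while control replicate 1 held a transcript of 2.92 FPKM over 42.0% of it. In the other direction, chr8:47528200-47529101, on an exon of the long non-coding form of ASNSP1, stood at 3.22, 2.74 and 3.36 FPKM in the 3 controls, and no heat shock library listed it. The loci chr10:130722268-130723089 (1.30, 2.21 and 4.69 FPKM) and chr17:35058389-35059483 (1.504, 2.28 and 2.73 FPKM) were likewise listed in the controls alone, and any overlap added nothing to these 3 loci in any library. Their adjusted p was 0.735 each (limma). All but 1 of the transcripts that gave these values were between 432 and 663 bases long. Strandless single-exon transcripts in the length class that ends at 700 bases had a 5th percentile of 1.24 to 2.41 FPKM depending on the library, so that several of these values lie near the lowest that a library listed.

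The remaining locus that was lower after heat shock was a bundle of overlapping assemblies. It covers 225335 bases next to the centromere of chromosome 4 (chr4:49313157-49538491) and takes in annotated pseudogenes such as ANKRD20A17P. Its values were 118, 170 and 288 FPKM in the controls and 48.9, 35.5 and 0 FPKM after heat shock. The log2 fold change was -3.89 ± 1.44 (SE), lower in 3 of 3 heat shock libraries, with an adjusted p of 0.735 (limma). Any overlap kept the groups apart, with 1211, 1043 and 1550 FPKM in the controls against 462, 505 and 423 FPKM after heat shock. Such a value adds up separate transcripts, some of them short, and is not a level over the locus. In control replicate 1 a transcript of 125 bases gave 545 FPKM, and in heat shock replicate 3 one of 161 bases gave 232 FPKM. With exons required to cover 50%, the locus had no value in any library. The transcripts behind the values of the 50% rule were all spliced, with 215 to 3403 bases in exons. Each of them spanned the unknown centre, so their coverage of the locus rests on introns across it.

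Far loci on exons of long non-coding and protein-coding genes reached moderate levels, and the groups overlapped in each of those named here. ENSG00000234147, a long non-coding RNA of chromosome 6, contributed chr6:141167091-141167645, with 26.4, 17.8 and 41.4 FPKM in the controls and 24.97, 74.9 and 0 FPKM after heat shock, where any overlap gave 49.6 FPKM in place of the 0. LINC02506 had 4.99, 0 and 12.1 FPKM in the controls and 35.7, 13.4 and 0 FPKM after heat shock (chr4:31998938-31999422). LINC02268 (chr4:175035200-175035549) was listed in heat shock replicates 1 and 2 alone, at 42.4 and 8.33 FPKM, and so was the locus chr7:65958519-65960632 on LINC00174, at 10.7 and 34.9 FPKM, where any overlap gave 18.4, 3.51 and 10.3 FPKM in the controls. Both are listed at 0 in heat shock replicate 3. With exons required to cover 50% of the locus, LINC02268 kept its values and the LINC00174 locus was at 0 in every library.

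PDZD2 encodes a protein with PDZ domains. The far locus at its GENCODE start, chr5:31639505-31646754, lay 84.3 kb from the nearest named locus and had 0, 0 and 16.1 FPKM in the controls and 22.0, 11.1 and 0 FPKM after heat shock. TIAM2, an activator of the small GTPase Rac, had 1.503, 0 and 3.52 FPKM in the controls and 7.62, 10.3 and 0 FPKM after heat shock at chr6:155229411-155230071. FOXO6, a forkhead transcription factor, was listed in control replicate 1 at 5.89 FPKM and in heat shock replicate 2 at 31.3 FPKM (chr1:41848561-41848896). The ANKRD36C locus had 42.4 FPKM in heat shock replicate 2 and no value elsewhere, over sequence with a median of 7525 genomic copies (chr2:96610374-96614324). The transcript RP6-42F4.1 met 3 far loci next to the centromere of chromosome 1 (chr1:120693694-120694047, chr1:120694232-120695342 and chr1:120696640-120697103), all listed at 0 in the controls and at 7.58, 3.02 and 5.16 FPKM in heat shock replicate 2, with 3.95 FPKM in heat shock replicate 1 for the middle one.

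Assembled introns were rare among far loci. The assemblies held 278 distinct introns within 98 far loci, of which 233 occurred in 1 library. GT-AG ends were found in 127 (45.7%), AT-AC in 91 (32.7%) and GC-AG in 56 (20.1%), whereas near loci had GT-AG ends in 63.8% of 459 introns and AT-AC in 16.1%. Outside ribosomal and tandem repeat loci, 92 of 174 introns of far loci had GT-AG ends, and within such loci 35 of 104 did. Whether the assembled introns arose by splicing was not tested. Introns seen in 3 or more libraries numbered 10. The one at chr16:61089505-61090618 (GT-AG, plus strand, printed above) lies in a locus that overlaps RPS27AP16, a pseudogene of the ubiquitin and ribosomal protein gene RPS27A, and was named after its values were seen. Its transcripts had 24.5, 0 and 71.02 FPKM in the controls and 59.1, 58.2 and 0 FPKM after heat shock. RPS27A, which matched 39.5% of the locus at 98.7% identity, had 778, 388 and 847 FPKM in the controls. After heat shock RPS27A had 1833, 2163 and 416 FPKM. The PDZD2 locus had a GT-AG intron at chr5:31639545-31646247 in the 3 libraries that listed it, and neither intron matched one annotated in GENCODE.

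Far loci were not spread evenly. The sequence more than 50 kb from named loci came to 944 Mb over 24 chromosomes and held 11.9 far loci per Mb. Chromosome 22 had 80.6 per Mb, chromosome 19 had 66.1 and chromosome 20 had 35.6, against 3.26 on chromosome 13 and 3.28 on chromosome 4. The dense chromosomes were those whose far sequence is rich in G and C, with 44.9% on chromosome 22 and 42.5% on chromosome 19 against 36.8% on chromosomes 4 and 13. The far loci had a median GC content of 46.4%, above the 38.4% of that sequence as a whole, and their median lay above that of the surrounding sequence on 24 of 24 chromosomes. Near loci had a median of 47.4%.

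**Figure D5:**
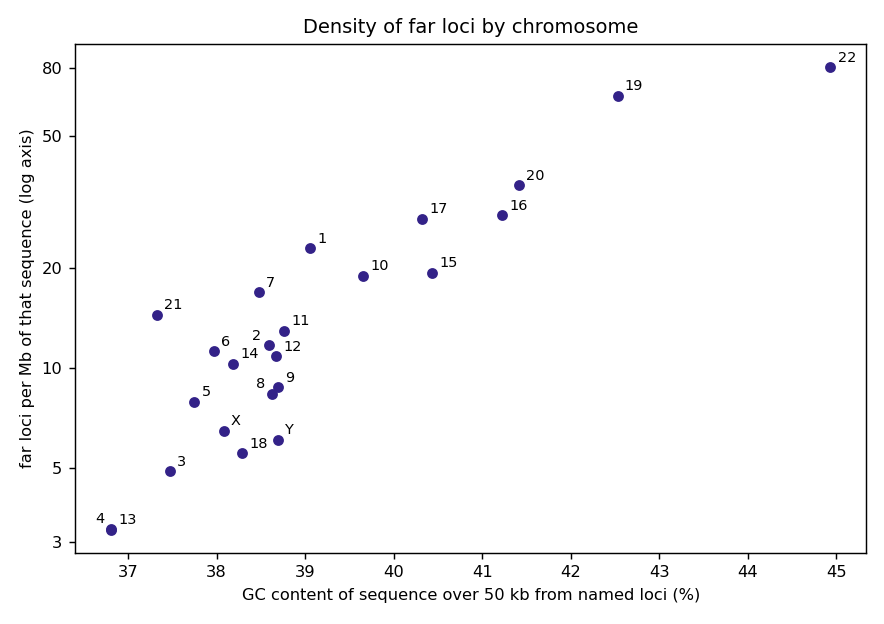
Each point is a chromosome, with the GC content of its sequence more than 50 kb from named loci on the horizontal axis (percent) and the number of far loci per Mb of that sequence on the vertical axis (log scale). Chromosomes 22 and 19 stand highest at 80.6 and 66.1 per Mb, and chromosomes 4 and 13 lowest at 3.28 and 3.26.

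The loci also came in runs. When loci within 10 kb of each other were joined, the 11216 far loci formed 3628 runs, 1729 of a single locus and 715 of 5 or more, which together held 6293 loci. The longest run by number counted 66 loci over 191 kb at chr4:190470130-190661472 in the span of LINC01262, a long non-coding RNA. Of these 66, control replicate 2 listed 43, heat shock replicate 3 listed 15 and control replicate 1 listed 7, while control replicate 3 listed 1 and heat shock replicates 1 and 2 listed none. A run of 8 loci within ENSG00000234147 (chr6:141201314-141219576) was listed otherwise, with 6 loci in control replicate 1, 7 and 4 in heat shock replicates 1 and 2, and none in the other 3 libraries.

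Far loci had a median length of 724 bases, with a middle range of 539 to 1268, against 825 for near loci, and a median distance of 114 kb from the nearest named locus. In 75.5% of them, at least 90% of the 31-base runs in the central 300 bases occurred once in the genome, against 64.6% of near loci. Motifs were searched in the central 300 bases on both strands. The pentamer run, GGAAT directly followed by a second GGAAT, was held by 0.588% of far loci (66) and 0.120% of near loci, and the heat shock element (GAA, TTC and GAA with 2 free bases between neighbours), the kind of site that HSF1 binds, by 0.767% (86) and 0.467%. The polyadenylation signal AATAAA was about as frequent in both, at 31.5% and 31.1%, and a run of 12 A was less frequent in far loci, at 4.04% against 7.61%. These shares are descriptions of the windows.

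The limits of the rule were narrow. Just inside the level of 1 FPKM stood chr12:128554717-128555318, with pooled values of 1.00 in control and 0.0647 after heat shock, and just outside it chr2:130195553-130196333, with 1.00 and 0.134. By distance, chr11:123344753-123346513 lay just inside at 50.01 kb and chr17:25693484-25694323 just outside at 49.996 kb. The chromosome Y loci, 81 in number, are counted in all totals and not named.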

How the data were processed

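Total RNA of 3 control and 3 heat shocked HEK293 cultures was sequenced, 1 library each. Per the labels and the paper, quality control used FastQC 0.10.1 and trimming Trimmomatic 0.3.0, alignment was to hg19 by tophat2, and Cufflinks 2.0.2 assembled every library separately. The deposited FPKM values are of 2 kinds: the FPKM of each assembled transcript in each library, and 1 pooled FPKM per group for each merged locus, from cuffdiff. The table's other columns hold the authors' own fold changes and p-values and were not used. No counts are given, so depth is known only from the ratio of coverage to FPKM, and count tests were not run.

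Far loci were those defined in the report. A library's value was the summed FPKM of transcripts whose span covered at least 50% of the locus (bedtools 2.31.1). Distinct loci whose mean reached 1 FPKM entered 1 fit of limma 3.58.1 (R 4.3.3, moderated with a trend) on log2(FPKM + 1), with Benjamini-Hochberg adjustment over all 9269. The pseudocount of 1 understates changes of low loci. On simulated data for this comparison, with 200 of 9269 loci changed, 1% of 8-fold changes and 24% of 32-fold changes were called. With the spread left after size factors and 200 of 14427 loci changed, 80% and 93% were called, with 11 false calls. In both simulations the changed loci were drawn only from loci with a high mean on the log2 scale, so the rates do not cover low loci. These rates are over the changed loci of each simulation and were not worked out for far loci. Of the 367 far loci tested, 90 reached a mean of 5 FPKM, so the rates cannot be read as the power for far loci. The p-values measure the spread between cultures as labelled.

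Annotation was GENCODE release 44 on GRCh37. Matches to ribosomal, mitochondrial and protein-coding sequences came from blastn 2.17.0, with a ribosomal match counted from 10% of the locus. Tandem repeats were loci in which at least 60% of bases equalled the base 1 repeat period further on, in the best window. The alpha satellite class was set by period alone, and no match to alpha satellite sequence was sought. Pentamer repeats can meet that period too: chr4:49131959-49132259 had a self-match of 80.2% there. Loci that reached 60% at both periods were counted as pentamer repeats. The 9 loci whose groups did not overlap, the 8 highest means, those listed in all libraries, up to 4 per exon class, up to 5 with several exons, up to 4 with pentamer runs and those next to the thresholds were named, and sequences came from GRCh37. Members, lists and rules were chosen with earlier results of these data known. Alternatives were other pseudocounts, minima, scalings, overlaps, p-values, the replicate block, left-out libraries and other limits for membership. The labels do not say whether equal replicate numbers mark paired cultures, and the main fit used no pairing. The same-number correlations of deviations from the group means were 0.075, -0.15 and -0.20. They cannot decide the question, since with 3 libraries per group the deviations also carry the differences between whole libraries.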

Additional observations from a re-analysis of the deposited data

How the results depend on the processing

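Alternatives changed the number of far loci called, which was 0 as reported, and the adjusted p of each of the 9 loci named for not overlapping ranged up to 1 under some alternative. Far loci called higher and lower, with calls over all loci in brackets, were 2 and 0 at a pseudocount of 0.1 (4), 5 and 2 with no minimum (72), 2 and 1 at a minimum of 5 FPKM (29), 2 and 0 with size factors (3) and with the same total FPKM 2 and 0 (5), and 24 and 9 at the unadjusted p (382). The calls under the pseudocount of 0.1 and under both scalings were RPL15P3 and PPIAP22, which any overlap turned to -1.09 and -1.80 on the log2 scale. With the replicate block 11 and 4 far loci were called (101 over all loci), but the labels do not say that equal replicate numbers mark paired cultures. Leaving out 1 library gave 0 to 26 far loci higher, 0 to 1 lower and 0 to 297 over all loci. The upper values came without heat shock replicate 3, and leaving out any other library gave 0. The median log2 fold change of far loci was -0.45 with no minimum, -0.94 with size factors, -0.27 with the same total and -0.96 with any overlap, all opposite to the reported 0.43. The medians of all loci in these settings were -0.34, -0.09, 0.06 and -0.40. It was 1.00 at a minimum of 5 FPKM, 0.96 at 80% overlap and 0.92 for loci above 2 FPKM pooled, and 0 to 0.89 with 1 library left out. The 11385 far rows became 19313 at 20 kb, 6457 at 100 kb, 1157 above 2 FPKM and 1966 when GENCODE genes were also kept at 50 kb. Exon overlap and a term for strandless transcripts, added after the values were seen, called 0 far loci. The libraries had no counts, so the depth behind a 0 is unknown.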
